A study of Mus musculus with 11 samples.

Results

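The genes described here are 33 markers of macrophages and related myeloid cells, read in the epididymal fat of mice with and without the kinin B1 receptor. Each gene was represented by its brightest probe set with a single gene symbol, by mean log2 signal over all 11 arrays, and all 33 genes were among the 12709 genes tested. The genes were listed by name, with earlier results of these data known, so comparisons of them with all genes are descriptions. Fat was taken from male C57BL/6 mice aged 3 months and kept on standard chow, and total RNA was hybridised to 1 Affymetrix array per sample. There were 4 arrays of wild-type mice (B1+/+) and 4 of knockout mice (B1-/-), whose gene for the B1 receptor, Bdkrb1, is inactivated. The other 3 arrays were of fat rescue mice (aP2B1-B1-/-), which share the B1-/- genotype with the knockout mice and carry the receptor under the aP2 promoter. The aP2 gene, Fabp4, encodes a fatty acid carrier of fat cells and is also transcribed by some macrophages, so a transgene under its promoter need not be limited to adipocytes. Arrays of a genotype are biological replicates by their labels, which do not say whether RNA of several animals was pooled, and p-values measure only the spread between these samples.

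Macrophages of fat tissue descend from embryonic precursors and from blood monocytes, and their survival depends on the growth factor receptor CSF1R. They clear dead fat cells and excess lipid through lysosomes, display Fc and lectin receptors that signal through adaptors with an immunoreceptor tyrosine-based activation motif (ITAM), and accumulate in visceral fat as it expands. Kinins are peptides released at sites of tissue injury, and the B1 receptor is a G protein-coupled receptor for some of them. In RNA of whole fat, fewer macrophages and less of a transcript per macrophage cannot be told apart.

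The signal of Bdkrb1 itself was between 3.7 and 32.2 in the 8 wild-type and knockout arrays and between 57.8 and 73.4 in the 3 rescue arrays. All signals here are MAS5 signal intensities on the linear scale of the deposited table, where the array medians lay between 41.3 and 48.8, so that the targeted gene was at background in both of the first groups and its loss could not be checked there. The fat cell genes that define the tissue were bright in every array. Over 12 fat cell markers, among them Fabp4, Car3 and Adipoq, the summed signal ranged from 116492 to 149494 in wild type, from 103740 to 139969 in knockout and from 111674 to 133097 in fat rescue.

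Many macrophage genes are transcribed under the control of PU.1, the product of the member gene Spi1, a transcription factor of the ETS family that binds purine-rich sites with a GGAA core. The promoters of 5 members are printed here for what the arrays gave on their transcripts. Ctss followed Spi1 most closely across arrays, at r = 0.99. Cd53 was at 0.96, behind Cd68 and Tyrobp at 0.97, which are not printed. Cybb had the smallest p-value of any member against wild type, Trem2 had the largest fitted difference, from a dim probe set, and Cd163 varied apart from the rest, at r = 0.03 with Spi1. They are RefSeq sequences of build GRCm38.p6, each from 250 bases before to 50 bases after the annotated start, written 5′ to 3′ on the strand of the gene. Capitals mark matches, on either strand, to the words GAGGAA and AGGAAGT, which share letters and overlap in some windows. Ctss lies at chr3:95526536-95526835 on the plus strand, Cd53 at chr3:106790100-106790399 on the minus strand and Cybb at chrX:9469275-9469574 on the minus strand. Trem2 lies at chr17:48346151-48346450 and Cd163 at chr6:124304401-124304700, both on the plus strand.
Ctss: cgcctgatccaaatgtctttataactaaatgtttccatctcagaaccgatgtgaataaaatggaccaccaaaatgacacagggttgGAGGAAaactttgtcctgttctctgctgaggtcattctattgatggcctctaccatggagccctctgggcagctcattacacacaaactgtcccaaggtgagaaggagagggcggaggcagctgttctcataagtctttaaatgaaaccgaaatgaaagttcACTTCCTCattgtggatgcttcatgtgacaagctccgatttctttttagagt
Cd53: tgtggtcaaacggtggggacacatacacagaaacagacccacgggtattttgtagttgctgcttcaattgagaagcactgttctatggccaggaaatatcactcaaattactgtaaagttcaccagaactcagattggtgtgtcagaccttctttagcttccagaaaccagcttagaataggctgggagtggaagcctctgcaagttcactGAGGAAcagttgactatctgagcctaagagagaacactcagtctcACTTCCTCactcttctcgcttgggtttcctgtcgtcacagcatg
Cybb: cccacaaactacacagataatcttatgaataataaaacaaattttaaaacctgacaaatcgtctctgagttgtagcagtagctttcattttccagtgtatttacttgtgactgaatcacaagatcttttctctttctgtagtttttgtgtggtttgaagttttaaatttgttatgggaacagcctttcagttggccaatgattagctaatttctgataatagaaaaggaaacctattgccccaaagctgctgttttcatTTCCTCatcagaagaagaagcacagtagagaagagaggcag
Trem2: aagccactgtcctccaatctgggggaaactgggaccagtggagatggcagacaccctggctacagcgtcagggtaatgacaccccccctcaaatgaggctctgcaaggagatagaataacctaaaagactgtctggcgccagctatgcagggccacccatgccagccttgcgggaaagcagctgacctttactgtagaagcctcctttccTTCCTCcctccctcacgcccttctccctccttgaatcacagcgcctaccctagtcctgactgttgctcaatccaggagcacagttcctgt
Cd163: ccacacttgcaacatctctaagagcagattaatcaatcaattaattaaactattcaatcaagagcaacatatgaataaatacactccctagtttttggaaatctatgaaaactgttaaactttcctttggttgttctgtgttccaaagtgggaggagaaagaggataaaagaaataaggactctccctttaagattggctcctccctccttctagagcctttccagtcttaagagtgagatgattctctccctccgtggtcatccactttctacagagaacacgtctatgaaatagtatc
In Ctss both words overlap across the start site, and in Cd53 they overlap downstream of it, beginning at bases 7 and 9. In Cybb a match begins at base 10 downstream, in Trem2 a match lies 40 bases before the start, and the Cd163 window holds neither word. Neither word was present in the windows of Mpeg1, Fcer1g, Itgax and Lgals3 either, whose r with Spi1 was 0.91, 0.87, 0.88 and 0.86, so that holding a word did not separate the members by their r with Spi1. Promoter windows were used for 24 of the 33 members, in 28 windows of 300 bases. Any member window on a chromosome that was left out is not counted, whereas the windows of all genes were not filtered by chromosome. GAGGAA was present in 20 of these windows (71.4%) against 28.3% of 32851 windows of all genes, and AGGAAGT in 10 (35.7%) against 9.35%. The ETS-IRF composite element, to which PU.1 can bind together with an interferon regulatory factor, was present in 5 windows (17.9%), of 4 genes, against 2.72%. Windows of a gene can overlap, as those of Clec7a and of Fcgr3 do, so that the same match is counted more than once. The TATA word TATAAA was present in 3 member windows (10.7%) against 13.6% of all. A match describes the letters of a window and not a bound site.

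Against wild type, most members had higher mean signals in both lines that lack the endogenous receptor, but no member passed the threshold of an adjusted p under 0.05 in any comparison. In knockout against wild type the median log2 difference over the members was 0.29, beside 0.02 over all genes, and in fat rescue against wild type it was 0.47, beside 0.03. Leaving out 1 array changed the knockout value. Without knockout array 1, singled out because its member signals were the highest, the member median was 0.09 for knockout. The difference of fat rescue from wild type does not use that array, so its median of 0.47 could not change. The members varied together across arrays. By role, the lysosomal and microbicidal effectors and the Fc and ITAM receptors and adaptors had the highest median differences from wild type in both lines with all arrays.

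**Figure D1:**
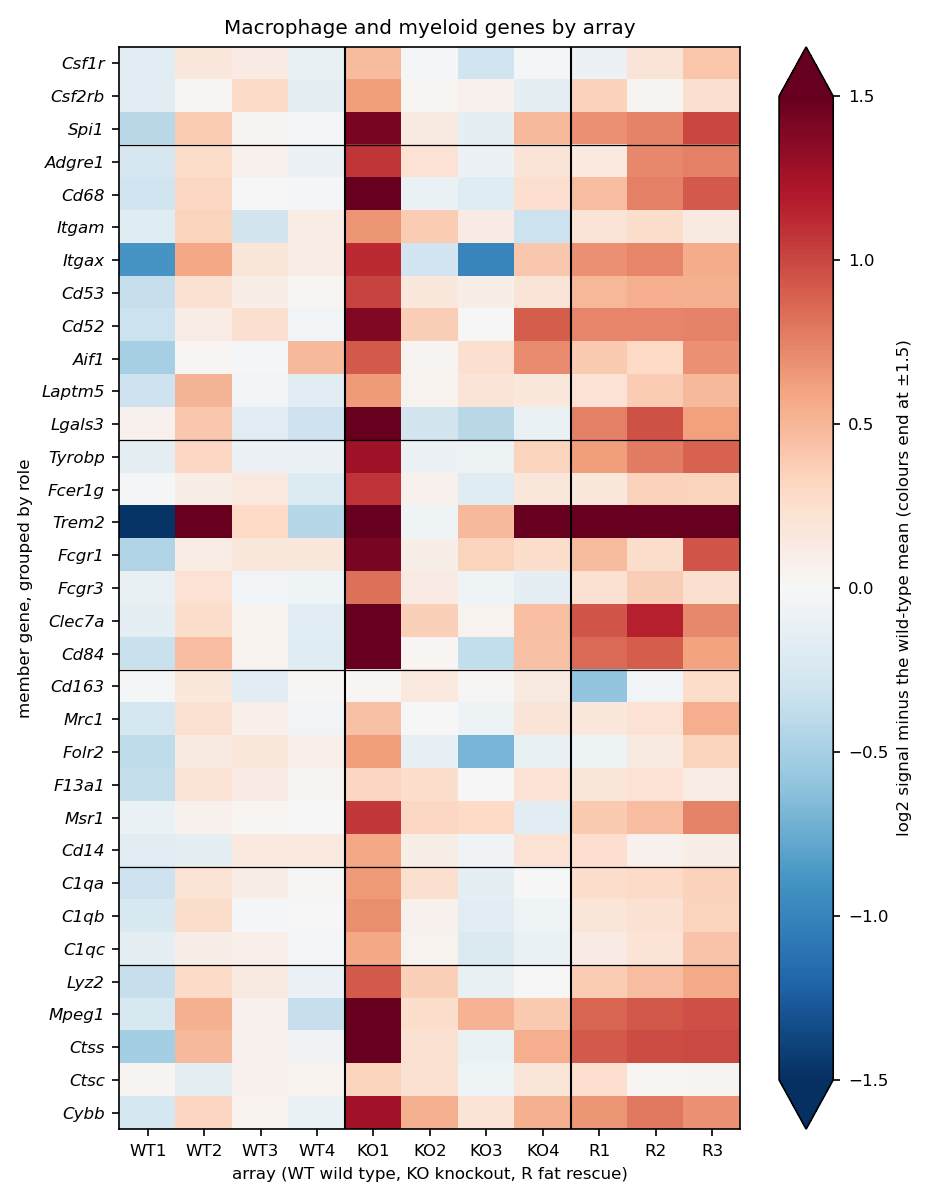
Log2 signal of each of the 33 members (rows, grouped by role) in each of the 11 arrays (columns), relative to the mean of the 4 wild-type arrays; colours end at ±1.5. Knockout array 1 is the highest array for 31 of the 33 members, and the 3 rescue arrays lie above the wild-type mean for 30, 32 and 33 members.

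Knockout array 1 was the highest of the 11 arrays for 31 of the 33 members, and rescue array 3 was the highest for Mrc1 and Cd163. Wild-type array 1 was the lowest of all arrays for 19 members. The median member signal relative to the wild-type mean was -0.26, 0.23, 0.07 and -0.04 on the log2 scale in wild-type arrays 1 to 4. It was 1.02, 0.09, -0.07 and 0.19 in knockout arrays 1 to 4, and 0.38, 0.38 and 0.56 in rescue arrays 1 to 3. Knockout arrays 2, 3 and 4 therefore lay within the range of wild type, and the 3 rescue arrays lay above it. Knockout array 1 also had the highest summed signal of fibroblast and preadipocyte markers, 56395 against at most 43615 in the other arrays, and of lysosome genes that fat cells also express, 71134 against at most 61954. The 3' to 5' signal ratio of the beta-actin control probe sets, a sign of RNA integrity, was 1.65 to 1.83 in wild type, 1.53 to 1.69 in knockout and 1.47 to 1.56 in fat rescue, and its part in the differences was not tested.

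The tests were limma's moderated tests on log2 signals over all 12709 genes with Benjamini-Hochberg adjustment. In knockout against wild type 0 of 33 members passed, where 0.0393% of all genes did, and 4 members had an unadjusted p under 0.05 with a higher mean, where 3.94% of all genes did. These were Cd52, Clec7a, Cybb and Mpeg1. The mean was higher in knockout for 32 of 33 members, against 53.7% of all genes, but for 25 of 33 when arrays were centred on their median, which moved the median of all genes to -0.13. The exception was Folr2, and with that centring also Csf1r, Csf2rb, Itgax, Cd163, Mrc1, C1qb and C1qc. For 0 of 33 members did the 4 knockout arrays lie above all 4 wild-type arrays, where 1.98% of all genes did.

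In fat rescue against wild type 0 of 33 members passed, where 0.0157% of all genes did, and 13 had an unadjusted p under 0.05 with a higher mean, where 4.6% did. The mean was higher in fat rescue for 32 of 33 members, against 55.7% of all genes, also with median centring, and the exception was Cd163. The 3 rescue arrays lay above all 4 wild-type arrays for 19 of 33 members, where 5.74% of all genes did. These 19 were C1qa, C1qc, Cd52, Cd53, Cd68, Cd84, Clec7a, Ctss, Cybb, Fcer1g, Fcgr1, Fcgr3, Lgals3, Lyz2, Mpeg1, Msr1, Spi1, Trem2 and Tyrobp. In fat rescue against knockout 0 of 33 passed, where 0% of all genes did, and 0 members had an unadjusted p under 0.05 with a higher mean, where 2.09% of all genes did. The mean was higher in fat rescue than in knockout for 26 of 33 members, against 52.6% of all genes, and for 30 with median centring. The rescue arrays lay above all knockout arrays for 0 members, where 2.84% of all genes did. With both lines together against wild type 0 of 33 members passed, where 0.0708% of all genes did. There 14 members had an unadjusted p under 0.05 with a higher mean, where 5.22% of all genes did, and 32 had a higher mean, against 54.9% (30 with median centring). The comparisons with wild type share the wild-type arrays.

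Leaving out each array was planned, but knockout array 1 was singled out because its member signals were the highest. The values without it follow in part from that choice and are a description, for knockout against wild type as for fat rescue against knockout. So do all p-values of that fit, whose spread is estimated without it. When knockout array 1 was left out, the member median of knockout against wild type came near that of all genes. The fitted differences of fat rescue from wild type do not use that array and could not change. Only their p-values could, through the spread estimated over all arrays. In knockout against wild type 24 of 33 members were then higher in mean, against 52.6% of all genes, and 3 (Cd52, Cybb and Mpeg1) had an unadjusted p under 0.05, where 3.68% of all genes did with a higher mean. In fat rescue against knockout the member median became 0.33 (0.16 with all arrays), and 31 of 33 members were higher in mean, against 52% of all genes. In this fit too 0 of 33 members passed in any comparison. The smallest adjusted p was 0.0681 by limma, for Clec7a in fat rescue against wild type. The SE of that difference was 0.15 in this fit and 0.28 with all arrays.

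**Figure D2:**
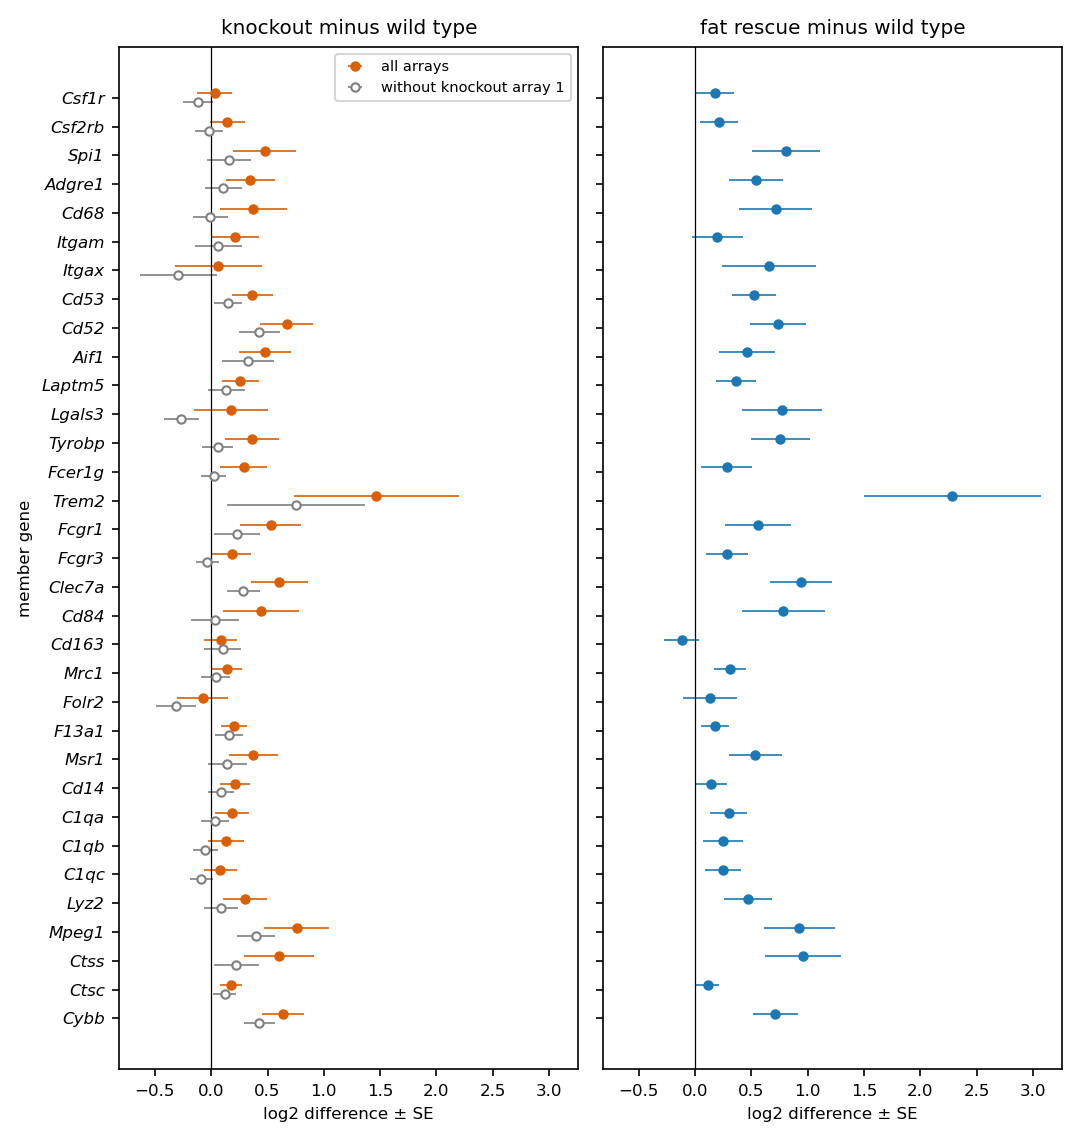
Log2 difference (x axis) ± SE of each member (y axis) in knockout minus wild type (left; filled points all arrays, open points without knockout array 1) and in fat rescue minus wild type (right). The member median is 0.29 on the left with all arrays and 0.09 without knockout array 1, and 0.47 on the right; no member passed the adjusted threshold. With arrays centred on their median 25 of 33 members instead of 32 are above 0 on the left.

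Among the growth factor receptors and the transcription factor, Spi1 differed more than Csf1r or Csf2rb in mean, by the brightest probe sets. The signal of Spi1 was 105.9, 183.9, 145.3 and 139.3 in wild-type arrays 1 to 4, 378.7, 154.4, 127.2 and 197 in knockout arrays 1 to 4 and 227.1, 235.7 and 281.3 in rescue arrays 1 to 3. Knockout array 1 stood above all others, and the rescue arrays stood above all wild-type arrays. The log2 difference from wild type was 0.81 ± 0.30 in fat rescue (SE; limma adjusted p = 0.551). A two-sided exact permutation test gave p = 0.0571, with 0.0286 as the least that 4 arrays against 3 allow. In knockout the log2 difference was 0.47 ± 0.28 (limma adjusted p = 0.733), and 0.16 without knockout array 1.

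Csf1r, the receptor for the growth factor CSF1, gave 3346.5, 4199.3, 4095.2 and 3469.3 in the wild-type arrays, 5228.9, 3684.4, 3066.4 and 3704.4 in the knockout arrays and 3528.2, 4291.8 and 5032.6 in the rescue arrays. The groups overlapped throughout. The difference was 0.03 ± 0.16 in knockout (-0.12 with median centring, -0.11 without knockout array 1) and 0.17 ± 0.17 in fat rescue, less than the spread between replicates. Csf2rb, the shared beta chain of the GM-CSF and several interleukin receptors, read 496.65 ± 74.2 in the wild-type arrays, 555.3 ± 139 in the knockout arrays and 572.4 ± 59.5 in the rescue arrays (SD, n = 4, 4 and 3). Its near-identical paralog Csf2rb2 may share part of this signal. The difference of Csf2rb from wild type was 0.14 in knockout (-0.02 without knockout array 1) and 0.21 in fat rescue. Its dimmer probe set, with a mean signal of 176, gave 0.31 and 0.73 with all arrays.

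The 9 surface and identity genes had a median difference of 0.35 in knockout and 0.54 in fat rescue, and none passed. The knockout median was 0.11 without knockout array 1, with 6 of 9 genes higher. Adgre1, the gene of the macrophage surface antigen used to sort these cells, read 436.4, 630, 545.2 and 488.1 in the wild-type arrays, 1091, 604.9, 488.9 and 596.3 in the knockout arrays and 575.9, 856.8 and 878.9 in the rescue arrays. The lowest rescue array lay within the wild-type range. Its difference was 0.35 ± 0.22 in knockout and 0.54 ± 0.24 in fat rescue (limma adjusted p = 0.749 and 0.596), and that of knockout was 0.11 without knockout array 1.

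Cd52, which encodes a small glycoprotein anchored on leukocytes, read 453.9, 613.2, 671.1 and 551.1 in the wild-type arrays, 1487.6, 731.5, 568 and 1064.4 in the knockout arrays and 940.3, 943.8 and 947.8 in the rescue arrays. All 3 rescue arrays and 3 of the 4 knockout arrays were above the highest wild-type array. The differences were 0.67 ± 0.23 in knockout and 0.74 ± 0.25 in fat rescue (limma adjusted p = 0.634 and 0.522). The exact permutation p in fat rescue was 0.0286, the smallest that 4 arrays against 3 can give. Without knockout array 1 the knockout difference was 0.43.

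Cd53, a tetraspanin of leukocytes, read 486.6, 727.3, 662.5 and 631.1 in the wild-type arrays, 1256.8, 694.9, 660.6 and 708.4 in the knockout arrays and 875.6, 905 and 894.3 in the rescue arrays. Knockout arrays 2 to 4 were within the wild-type range and the rescue arrays above it, with differences of 0.37 ± 0.18 and 0.52 ± 0.20 (limma adjusted p = 0.701 and 0.563), and 0.15 in knockout without knockout array 1. Aif1, an actin-binding protein used to stain macrophages, read 72.6, 104.9, 101 and 143.2 in the wild-type arrays, 194, 105.4, 120.6 and 166.9 in the knockout arrays and 134.9, 126.1 and 164.7 in the rescue arrays. All 3 groups overlapped for Aif1, whose probe set may also bind related transcripts.

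Cd68, a lysosomal glycoprotein of macrophages, and Lgals3, a galactose-binding lectin, had mean signals of 664 and 1833 in the wild-type arrays, 967 and 2402 in the knockout arrays and 1087 and 3089 in the rescue arrays, and their 3 rescue arrays lay above all wild-type arrays. For Lgals3 the SD of the knockout arrays was 1803. The knockout differences of Cd68 and Lgals3 were 0.37 and 0.18 with all arrays, and -0.01 and -0.27 without knockout array 1. The integrin chains Itgam and Itgax, the alpha subunits of complement receptors on myeloid cells, and the lysosomal membrane protein gene Laptm5 overlapped between all groups. Itgam read 90.3 ± 17.6 in the wild-type arrays, 106.5 ± 29.5 in the knockout arrays and 102.2 ± 4.74 in the rescue arrays (SD, n = 4, 4 and 3).

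**Figure D3:**
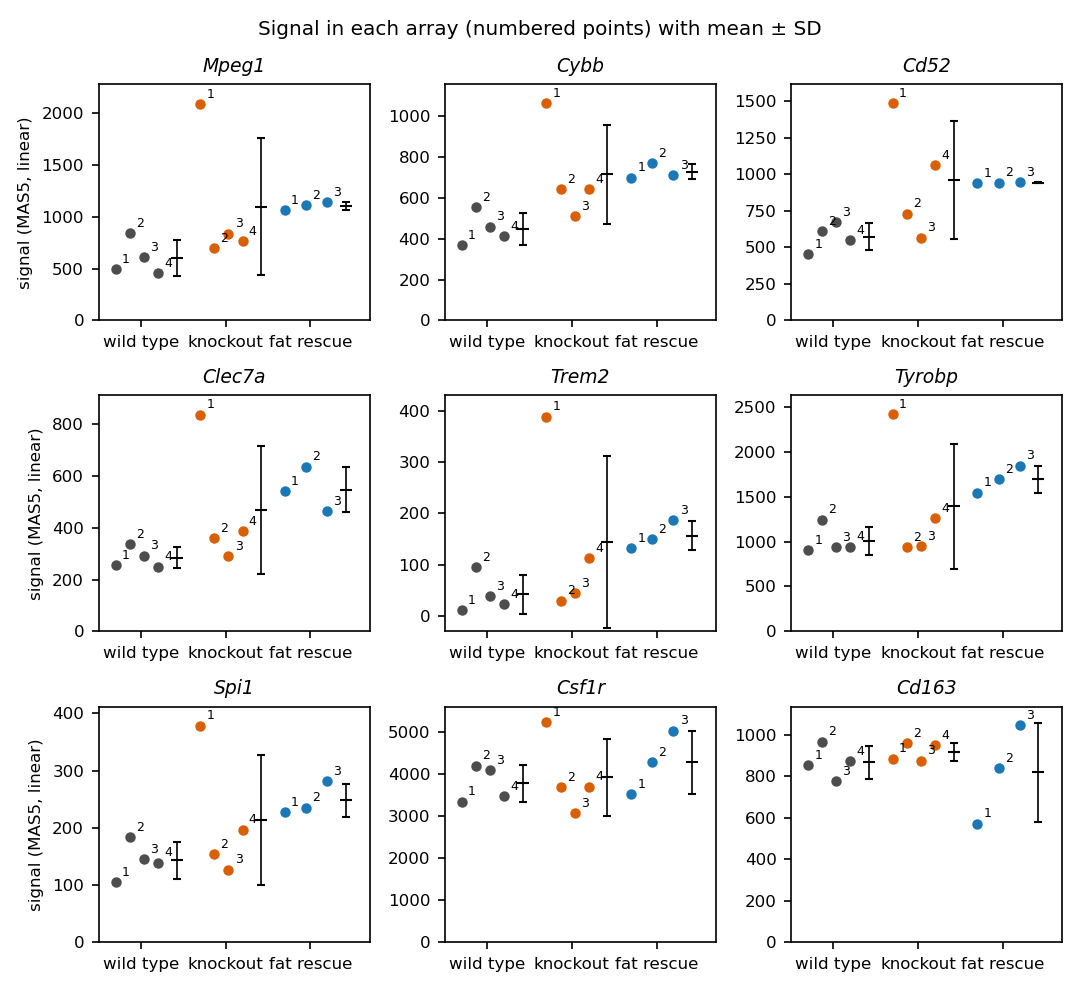
MAS5 signal (y axis, linear) of 9 members in each array, as points numbered by array, beside the mean ± SD of each genotype (x axis; n = 4, 4 and 3). Knockout array 1 is the highest array in 8 of the 9 panels, rescue array 3 is the highest for Cd163, and the 3 rescue arrays lie above all wild-type arrays in 7 panels, all but Csf1r and Cd163. The lower end of the knockout bar of Trem2 is below 0 because its SD, 167, exceeds its mean, 144.

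The 7 Fc and ITAM receptors and adaptors had the largest median in fat rescue, 0.76, beside 0.44 in knockout, none passed, and the knockout median fell to 0.06 without knockout array 1. Trem2, a lipid-sensing receptor of macrophages that signals through Tyrobp, read 11.5, 96.2, 39 and 23.7 in the wild-type arrays, 388.4, 30.4, 44.7 and 113.3 in the knockout arrays and 132.2, 150.7 and 186.9 in the rescue arrays. Of the 8 wild-type and knockout signals, 5 lay below their array's median, so that the size of its differences is uncertain. The rescue arrays lay above all wild-type arrays, whereas the knockout arrays overlapped with both groups. The fitted log2 difference from wild type was 2.29 in fat rescue (limma adjusted p = 0.522) and 1.47 in knockout (limma adjusted p = 0.701), but 1.23 and 0.80 on the log2(value + 50) scale, and 0.75 in knockout without knockout array 1. The other probe set of Trem2, with a mean signal of 18.0, ran the opposite way, at -2.03 and -1.10.

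Tyrobp, the ITAM adaptor itself, read 906.7, 1244.6, 940.8 and 944.4 in the wild-type arrays, 2414.8, 942.3, 950.9 and 1258.1 in the knockout arrays and 1545.4, 1697.3 and 1845.5 in the rescue arrays. The rescue arrays were above every wild-type array and above knockout arrays 2 to 4. The difference in fat rescue was 0.76 ± 0.26 (limma adjusted p = 0.522; exact permutation p = 0.0286) and that in knockout 0.36 ± 0.24 (limma adjusted p = 0.756), or 0.06 without knockout array 1.

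Clec7a, the beta-glucan receptor dectin, read 256.9, 338.5, 293.1 and 250.3 in the wild-type arrays, 836.8, 361.1, 292.1 and 386.2 in the knockout arrays and 542.2, 636.5 and 465.1 in the rescue arrays. It was the member with the smallest p apart from Cybb in fat rescue, at 0.94 ± 0.28 (limma adjusted p = 0.417), and its knockout difference was 0.60 ± 0.26 (limma adjusted p = 0.683), or 0.28 without knockout array 1. Fcgr1, the high-affinity receptor for immunoglobulin G, read 73.3, 108.5, 113 and 112.1 in the wild-type arrays, 268.1, 106.8, 126.7 and 120.3 in the knockout arrays and 138.9, 120.6 and 192.5 in the rescue arrays. The rescue arrays were above all wild-type arrays, though by a narrow margin for rescue array 2. Its difference in fat rescue was 0.56, and that of its dimmer probe set 0.20. The Fc adaptor gene Fcer1g, the low-affinity receptor gene Fcgr3 and the adhesion receptor gene Cd84 also had all rescue arrays above all wild-type arrays, with differences of 0.28 ± 0.23, 0.28 ± 0.19 and 0.78 ± 0.37.

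The 6 genes of resident and scavenging macrophages had smaller differences, with medians of 0.17 in knockout (0.09 without knockout array 1, 0.02 with median centring) and 0.16 in fat rescue. Cd163, a receptor that takes up haemoglobin bound to haptoglobin, was singled out after its values were seen. It ranged from 775.2 to 967.2 in wild type, from 875.2 to 958.1 in knockout and from 571.9 to 1048 in fat rescue, where it had both its lowest and its highest array. Its difference was 0.08 ± 0.15 in knockout (-0.06 with median centring) and -0.12 ± 0.16 in fat rescue. Folr2, the beta folate receptor of resident macrophages, was at -0.08 ± 0.22 and 0.13 ± 0.24. Mrc1, the mannose receptor, differed by 0.31 ± 0.15 in fat rescue (limma adjusted p = 0.619), and F13a1, the A chain of coagulation factor XIII, by 0.17 ± 0.12. Only Msr1, the class A scavenger receptor gene, had rescue arrays above all wild-type arrays in this group, at 0.54 ± 0.23 (limma adjusted p = 0.595; exact permutation p = 0.0286). Its dimmer probe sets gave 0.55, 0.47 and -0.15. Cd14, the co-receptor for bacterial lipopolysaccharide, read 423 ± 48.9 in the wild-type arrays, 493.3 ± 96.8 in the knockout arrays and 465 ± 32.0 in the rescue arrays (SD, n = 4, 4 and 3).

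The 3 chains of complement C1q, which macrophages secrete, had medians of 0.13 in knockout (-0.01 with median centring, where C1qb and C1qc were below 0, and -0.05 without knockout array 1) and 0.25 in fat rescue. C1qa read 1638.5, 2342, 2175.3 and 2064.6 in the wild-type arrays, 3171.1, 2397.5, 1836.9 and 2044.6 in the knockout arrays and 2446, 2481.3 and 2597.2 in the rescue arrays. The rescue arrays were just above the highest wild-type array, at 0.30 ± 0.16 (limma adjusted p = 0.663). C1qc was also without overlap at 0.25 ± 0.16, and C1qb overlapped at 0.25 ± 0.17. The 2 other probe sets of C1qb, with mean signals of 1374 and 744, gave 0.11 and 0.02 in fat rescue.

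The 5 lysosomal and microbicidal effectors had medians of 0.60 in knockout and 0.71 in fat rescue, and none passed. The knockout median was 0.22 when knockout array 1 was left out. Mpeg1, a pore-forming protein of phagocytes, read 490.6, 838.4, 606.4 and 455 in the wild-type arrays, 2081.2, 699.1, 836.2 and 764.4 in the knockout arrays and 1062.5, 1107.1 and 1138.1 in the rescue arrays. Only knockout array 1 stood above the wild-type range in its group, whereas all rescue arrays did. The differences were 0.76 ± 0.29 and 0.93 ± 0.31 (limma adjusted p = 0.667 and 0.520), and that of knockout was 0.40 without knockout array 1.

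Cybb, the membrane subunit of the phagocyte NADPH oxidase, read 367.7, 553.3, 459.3 and 412 in the wild-type arrays, 1065, 643.3, 509.9 and 641.7 in the knockout arrays and 699.3, 769.3 and 712.6 in the rescue arrays. It was above the highest wild-type array in all 3 rescue arrays and in 3 of 4 knockout arrays. Its difference was 0.64 ± 0.19 in knockout, 0.71 ± 0.20 in fat rescue and 0.67 ± 0.17 in both lines together (limma adjusted p = 0.574, 0.410 and 0.249), the smallest p of any member in each. Its 2 other probe sets gave differences of 0.51 and 0.47 for the knockout and of 0.64 and 0.66 for the rescue. Without knockout array 1 the knockout difference was 0.43 ± 0.14 (limma adjusted p = 0.682). The exact permutation p in fat rescue, with all arrays, was 0.0571 for Cybb, as for Mpeg1, Ctss, Trem2 and Cd53.

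Ctss, cathepsin S, which trims the invariant chain in antigen presentation, read 1050.2, 2092.1, 1559.5 and 1438.2 in the wild-type arrays, 4935.4, 1742.8, 1388.7 and 2177.9 in the knockout arrays and 2817.8, 2932.1 and 2960.3 in the rescue arrays. The rescue arrays lay close together and above all wild-type arrays, at 0.96 ± 0.34 (limma adjusted p = 0.533). Lyz2, the lysozyme of macrophages, read 4147.4, 6433.5, 5786.3 and 4965.3 in the wild-type arrays, 9987.9, 6750.1, 4890.4 and 5304.3 in the knockout arrays and 6836, 7227.8 and 7794.3 in the rescue arrays, at 0.47 ± 0.21 in fat rescue. Ctsc, a protease that activates serine proteases of leukocytes and is not limited to macrophages, read 3671.6, 3240.9, 3733.5 and 3706.6 in the wild-type arrays, 4527.1, 4203.6, 3438.3 and 4068.6 in the knockout arrays and 4273.5, 3670.2 and 3694.4 in the rescue arrays. All 3 groups overlapped for Ctsc.

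The members varied together across arrays, also among arrays of the same genotype. The median Pearson r over the 528 pairs of members was 0.79 over 11 arrays, and 87.3% of pairs were above 0.5, against a median of 0.00 and 7.67% over all pairs of genes tested. With the genotype means subtracted the median was 0.77. Without knockout array 1 it was 0.68, and Spearman's rho was 0.74 over all arrays and 0.65 without that array. Without knockout array 1 and rescue array 3, whose summed member signals of 64639.5 and 49020.9 lay farthest from the median of the arrays, 38730.3, the median r was 0.63, and without knockout array 1 and with genotype means subtracted it was 0.51. These are descriptions over arrays that share their labelling and scaling.

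Ctss and Spi1 formed the closest pair, at r = 0.99. Cd163 was the least coupled member, with a median r of 0.03 to the other members, followed by Ctsc at 0.43 and Itgam at 0.58. The lowest pair was Cd163 with Ctsc, at -0.31. Cd84, Spi1, Cd53, Cd68 and Adgre1 had the highest medians, between 0.88 and 0.89.

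**Figure D4:**
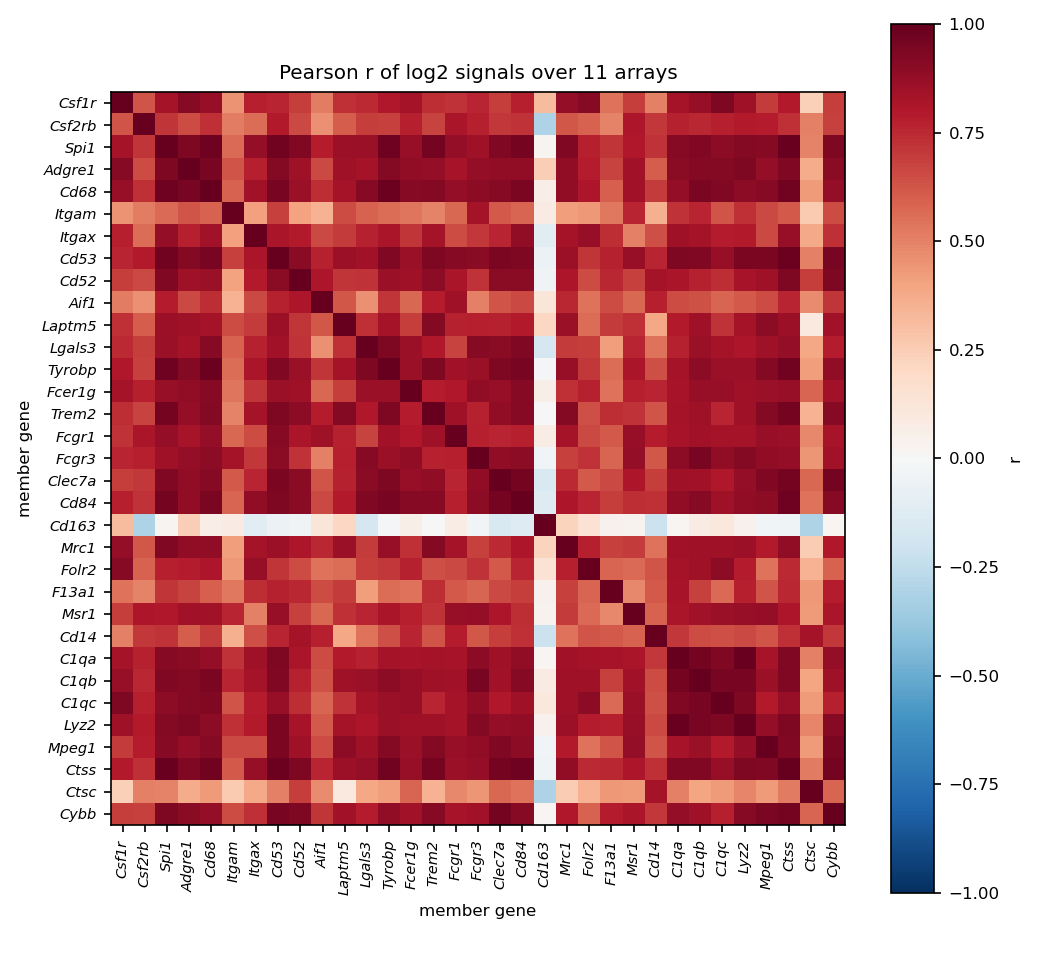
Pearson r of log2 signals over the 11 arrays for every pair of the 33 members (both axes; colour from -1 to 1). The median over 528 pairs is 0.79; the pale row and column is Cd163, whose median r is 0.03, and the next palest is Ctsc at 0.43.

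The genes outside the list that most resembled the mean of the members, by r over 11 arrays, were Itgb2 (0.99), Fermt3 (0.99), Alox5ap (0.99), Wfdc17 (0.98), S100a4 (0.97), Nckap1l (0.97), Adam8 (0.97), Arhgdib (0.97), Emp3 (0.96) and Pirb (0.96). Itgb2 encodes the beta chain that pairs with the products of Itgam and Itgax, and Alox5ap a protein of leukotriene synthesis in leukocytes. Adam8 differed by 0.93 in knockout and 1.46 in fat rescue (limma adjusted p = 0.701 and 0.522), and none of the 10 passed.

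Other genes of macrophage pathways, listed apart from the members but also with earlier results known, gave 0 genes past the threshold in any comparison. Of 4 measured subunits of the phagocyte NADPH oxidase, which work with Cybb, all 4 had higher means in both lines, with a median of 0.27 in knockout and 0.49 in fat rescue. Without knockout array 1 the knockout median was 0.01, with 2 of 4 higher. Cyba, the partner of Cybb in the membrane, differed by 0.54 with both lines together (limma adjusted p = 0.450). Of 12 kinases, phosphatases and adaptors downstream of ITAM and Fc receptors, 11 were higher in knockout and 11 in fat rescue, with medians of 0.34 and 0.37 (10 of 12 and 0.16 in knockout without knockout array 1). Among them were Lcp2 at 0.61, Ptpn6 at 0.45 and Fgr at 0.51 with both lines together (limma adjusted p = 0.334, 0.347 and 0.432). Of 13 genes of the CSF1 axis and of myeloid transcription factors, 8 were higher in knockout (6 with median centring or without knockout array 1) and 9 in fat rescue. With both lines together Irf8 was at 0.46 and Csf1 at 0.29 (limma adjusted p = 0.346 and 0.377). Cebpa, which fat cells also express, was at -0.08. The median over all genes was 0.02 with both lines together, and median centring of the arrays moved it to -0.10.

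Lysosome genes that fat cells express as well did not differ in the same direction. Of 13, 4 were higher in knockout and 7 in fat rescue, with medians of -0.05 (0.01 with quantile normalization) and 0.03 (-0.07 with median centring). Of the 13, 2 were higher in knockout without knockout array 1, with a median of -0.14. Lgmn and Lipa, a protease and the acid lipase of lysosomes, were at 0.51 and 0.46 with both lines together, and Npc2, a cholesterol carrier, at -0.23 (limma adjusted p = 0.470, 0.481 and 0.476). Of 9 genes of lipid-associated macrophages, 6 were higher in knockout (median 0.20, and 0.11 without knockout array 1) and 7 in fat rescue (0.43). Atp6v0d2, a subunit of a proton pump, read 76.2 ± 36.7 in the wild-type arrays, 185 ± 173 in the knockout arrays and 293 ± 36.6 in the rescue arrays (SD, n = 4, 4 and 3). Its difference was 1.52 with both lines together (limma adjusted p = 0.314). Gpnmb, a membrane glycoprotein of lipid-laden macrophages, read 394 ± 156, 996 ± 1153 and 1198 ± 179 in the same order, at 1.27 (limma adjusted p = 0.476). For both genes the SD of the knockout arrays was close to their mean or above it.

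Of 14 markers of resident fat macrophages, 8 were higher in knockout and 12 in fat rescue, with medians of 0.03 and 0.18 (-0.11 and 0.07 with median centring; -0.02 in knockout without knockout array 1), so that the resident markers were nearer to the median of all genes than the members were. Ccl8 was at 0.65, Cd5l at 0.63 and Cd209f at 0.30 with both lines together, while Lyve1 was at -0.11 and Retnla at -0.20. Of 7 monocyte and neutrophil markers 4 were higher in knockout and 5 in fat rescue. Ccr2, the chemokine receptor that brings monocytes into tissue, was at 0.43 with both lines together (limma adjusted p = 0.312). The summed signal of the monocyte and neutrophil markers was 4168 in rescue array 1 and at most 1634 in the other arrays. Of 12 inflammatory and alternative activation genes, 6 (Tnf, Nos2, Il6, Cxcl2, Ccl3 and Il10) were too dim to be tested. Of the 6 tested, 5 were higher in knockout (median 0.30) and 5 in fat rescue (0.46), and without knockout array 1 the knockout median was 0.00, with 3 higher. Of 6 dendritic cell markers 3 were higher in knockout and 3 in fat rescue.

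**Figure D5:**
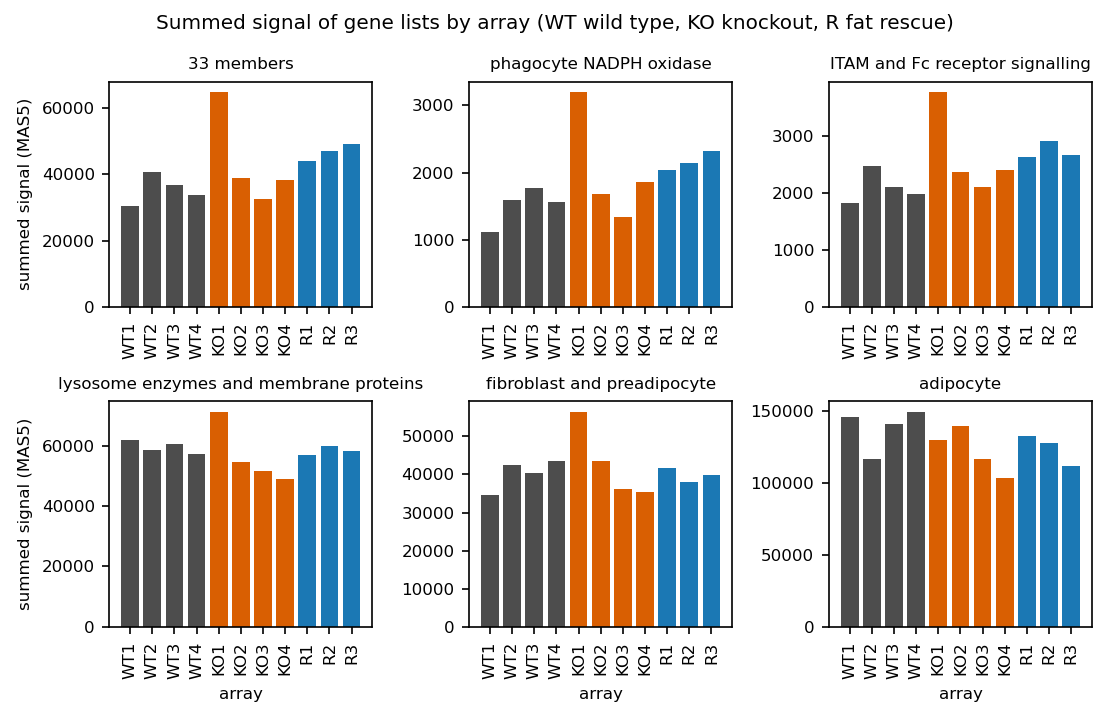
Summed MAS5 signal (y axis, from 0) of 6 gene lists in each of the 11 arrays (x axis). The members, the NADPH oxidase and the ITAM signalling genes are highest in knockout array 1 and higher in the 3 rescue arrays than in any wild-type array; fibroblast and lysosome genes are highest in knockout array 1 without that order, and fat cell genes overlap between genotypes.

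Markers of other cells of fat moved as follows beside the members. Of 12 fat cell markers, 0 had a higher mean in knockout and 1 in fat rescue, with medians of -0.23 and -0.17, and none passed. Of 10 fibroblast and preadipocyte markers 7 were higher in knockout and 7 in fat rescue (medians 0.13 and 0.06, or -0.02 and -0.04 with median centring). Of these 10, 4 were higher in knockout without knockout array 1, with a median of -0.05. Of 10 mesothelial markers 9 were higher in each (0.19 and 0.39), and their summed signal was 2797 in wild-type array 1 and between 4102 and 5590 in the others. Of 10 lymphocyte markers 8 were higher in knockout and 9 in fat rescue (0.32 and 0.42), and of 7 mast cell markers 6 and 4 (0.37 and 0.14). The summed signal of the lymphocyte markers ranged from 6012 to 10076 in wild type, from 4833 to 8088 in knockout and from 2800 to 9382 in fat rescue. Of 14 endothelial markers 4 and 10 were higher (-0.08 and 0.10), or 0 and 7 with median centring. Of 8 smooth muscle and pericyte markers 3 and 5 were higher (-0.13 and 0.07, the latter -0.03 with median centring), and of 3 red blood cell markers 1 and 0 (-0.23 and -0.73). Of 9 epididymis genes, 1 was bright enough to be tested, and the summed signal of those on the array stayed between 65.9 and 122.5. No marker was listed at 0 in all arrays. The part of these cells in the differences of the members was not tested.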

How the data were processed

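Each array measured total RNA of 1 epididymal fat sample. Per the submitters' processing notes the authors used GCOS 1.3 and MAS5, and the deposited table holds a signal intensity per probe set on a linear scale. With 2% of probe sets trimmed at either end, array means were 199 to 200, so the arrays had been scaled alike by that mean. The array medians were 41.3 to 45.1 in wild type, 46.5 to 48.8 in knockout and 45.6 to 46.6 in fat rescue. Wild type thus had the lowest medians, and median centring lowers both lines against it. Precision is limited by the number of arrays. One value of 0 was set to 0.1 before log2 was taken.

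Of 45101 probe sets, 34945 had 1 symbol in GEO's platform annotation, 932 several, 9160 none and 64 were controls. The upper 60% by mean log2 signal (27022) were kept, and each gene was read by its brightest single-symbol probe set (12709 genes). All arrays were fitted in limma 3.58.1 (eBayes with trend, R 4.3.3) with genotype as the factor, two-sided, with Benjamini-Hochberg adjustment over all genes and a threshold of 0.05. Exact permutation tests used the log2 signals, and their p-values were not adjusted over genes. For fat rescue against wild type 0.0286 was the least p they could give. Promoters and start sites were taken from RefSeq tables of GRCm38.p6. The steps were tested on simulated data.

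The members and lists were chosen with earlier results of these data known. Every member may be named. Array values are given for the 8 members with the smallest p in knockout and in fat rescue against wild type, the 4 brightest, Csf1r, Adgre1, Spi1 and members below the array medians. For other lists up to 3 genes with the smallest p are named, up to 3 brightest for lists of other cells, and the 10 genes most like the members. A few further genes (Cebpa, Lyve1 and Retnla) were named after their values were seen. Alternatives were quantile normalization, median centring, log2(value + 50), no filter or the upper 40% of probe sets, averaging the probe sets of a gene or taking the dimmest, eBayes with no trend or robust, fitting only 2 groups, a replicate block and leaving out each array. Leaving out wild-type array 1 and rescue array 1 together was added after seeing the data. The labels give replicate numbers but no pairing, batch or scan date. Deviations of arrays with the same number correlated between -0.14 and 0.34, and no pairing was assumed.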

Additional observations from a re-analysis of the deposited data

Results flagged for a closer look

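In each group of 4 arrays, wild type and knockout, the highest and the lowest log2 signal of every member was set against the others by its gap to the nearest array as a share of the range of the group. Of 66 sets, 7 had a share above 0.829, and chance puts about 1 in 20 sets there. The sets share their arrays and the members vary together, so they are not independent, and whether 7 exceeds chance was not tested. Knockout array 1 stood far above the other knockout arrays for Cd53 (share 0.891, signal 1256.8), Mpeg1 (0.836, 2081.2) and Lgals3 (0.835, 5099.4). Wild-type array 1 stood far below for the Fc receptor gene Fcgr1 (0.906, 73.3) and the folate receptor gene Folr2 (0.847, 492.5). Wild-type array 2 stood far above for the adaptor gene Tyrobp (0.871, 1244.6) and far below for the protease gene Ctsc (0.882, 3240.9).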

How the results depend on the processing

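The number of arrays and, for Trem2, signals below the array medians limit these results. Under each of 23 other settings 0 of 33 members passed in every comparison it could be run in. The lowest adjusted p was 0.0681 (limma, without knockout array 1), and 75 of 2999 member differences had the other sign. The member median stayed above 0 in each comparison. Leaving out 1 array at a time gave 0.09 to 0.41 in knockout against wild type, 0.04 to 0.33 in fat rescue against knockout, 0.35 to 0.56 in fat rescue against wild type and 0.25 to 0.48 with both lines together, and a median pairwise r of 0.68 to 0.82. The lowest knockout value and the highest in fat rescue against knockout were those without knockout array 1, and the reverse without knockout array 3. The count of all genes passing was 5 in knockout, 2 in fat rescue and 9 with both lines against wild type. It became 2 to 14, 1 to 8 and 3 to 19 when 1 array was left out, with the highest counts without wild-type array 1, and stayed at 0 in fat rescue against knockout. In knockout it was 10 with median centring (2 higher and 8 lower, against 3 and 2), 2 without trend, 2 with only the groups compared and 14 without wild-type array 1 and rescue array 1. In fat rescue it was 5 with median centring (2 higher and 3 lower), 6 with the upper 40% of probe sets and 6 without those arrays, and 1 with the mean or the dimmest of a gene's probe sets, without trend, with robust eBayes or with only the groups compared. With both lines it was 5 with the dimmest probe set and 2 without trend. The cause was not tested. With the replicate number as a block, which the labels do not state to pair the arrays, the count was 8 in knockout against wild type. The member medians with that block were 0.29 in knockout against wild type, 0.10 in fat rescue against knockout and 0.44 in fat rescue against wild type. No paired value was computed for the correlations.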
